A study of Mus musculus with 18 samples.

Results

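The genes described here code for the nuclear pore complex and the nuclear lamina of the mouse oocyte. They are 31 genes, 28 nucleoporins and pore-associated proteins and 3 lamins, out of 27874 in the deposited expression table. They were listed by name and found by gene symbol. No measured value is part of that rule, although earlier results of these data were known when the list was made. RNA was sequenced from fully grown oocytes with an intact germinal vesicle (GV), from oocytes at metaphase of meiosis I (MI), and from oocytes labelled metaphase II (MII), which were taken 14 h after human chorionic gonadotropin (hCG). At each stage there were 3 libraries from wild-type (WT) mice and 3 from Lsm14b-/- mice (KO), 18 libraries in all, each made from a pool of 15 oocytes. LSM14B is an RNA-binding protein of oocyte messenger ribonucleoprotein granules, and the series asked how its loss affects the storage and clearance of maternal mRNA. Neither age nor strain was used here, and the labels do not say whether replicates came from separate mice. MII is used here as the name of the 14 h time point in both genotypes, since the labels do not say whether the KO oocytes had reached metaphase II by then. A time after hCG is given for the MII libraries only, so in both genotypes time after hCG and meiotic stage cannot be told apart. The p-values therefore measure the spread between these libraries, which may in part be technical.

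The nuclear pore complex is a ring-shaped channel through which all exchange between nucleus and cytoplasm passes. Its Y complexes form the outer rings, inner ring nucleoporins join these rings to the membrane, FG-repeat nucleoporins fill the channel, and filaments and a basket extend to either side. The lamins form a meshwork under the inner nuclear membrane. In the oocyte the envelope of the germinal vesicle carries these structures until germinal vesicle breakdown. Pores and lamina then come apart, and the egg has no nucleus until pronuclei form after fertilisation, so maternal stores of these mRNAs and proteins serve the first nuclei of the embryo.

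The deleted gene was measured at 2.04 to 11.2 FPKM (fragments per kilobase of exon, scaled to library size) in the WT libraries and at 0 to 0.234 FPKM in the KO libraries. The low values of each library were whole multiples of 1 read on scales of 14227763 to 17183681 reads. Levels of 8 oocyte marker genes summed to between 9028 and 25015 FPKM per library. Of 14 cumulus and granulosa markers, 8 stayed under 1 FPKM in every library, and the list summed to 5.28 to 12.5 FPKM. At GV this sum was 9.90 to 12.5 FPKM in KO and 5.28 to 10.3 FPKM in WT. Sums of 6 blood markers were 0.507 to 7.73 FPKM, apart from 1 WT MI library at 29.954, and those of 9 theca, stroma and endothelium markers were 2.27 to 6.79 FPKM. The KO GV libraries resembled each other less than those of the other groups did, with correlations across genes of 0.877 to 0.959 against 0.964 to 0.988 (Pearson's r of log2 levels). Replicate 2 of that group lay farthest from its group mean, and results that change without it are given both ways.

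Transcript levels of the 31 genes spanned almost 3 orders of magnitude (plot of levels by stage). FPKM are per length, so that genes can be set side by side. Averaged over the 18 libraries, the highest were Nup37 and Sec13, members of the Y complex, at 162 and 118 FPKM. Nup35, an inner ring nucleoporin that contacts the pore membrane, followed at 83.8 FPKM, and Aaas, which encodes the pore protein aladin, at 75.9 FPKM. The lowest were Nup210, which encodes the transmembrane nucleoporin gp210, at 0.195 FPKM, and the B-type lamin genes Lmnb2 and Lmnb1 at 0.755 and 0.842 FPKM. Within the Y complex levels ranged from 1.77 FPKM for Nup133 to the 162 FPKM of Nup37. Nup210 never passed 0.368 FPKM and was not tested. The other 30 genes reached 1 FPKM in at least 3 libraries and were among the 10320 tested.

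**Figure D1:**
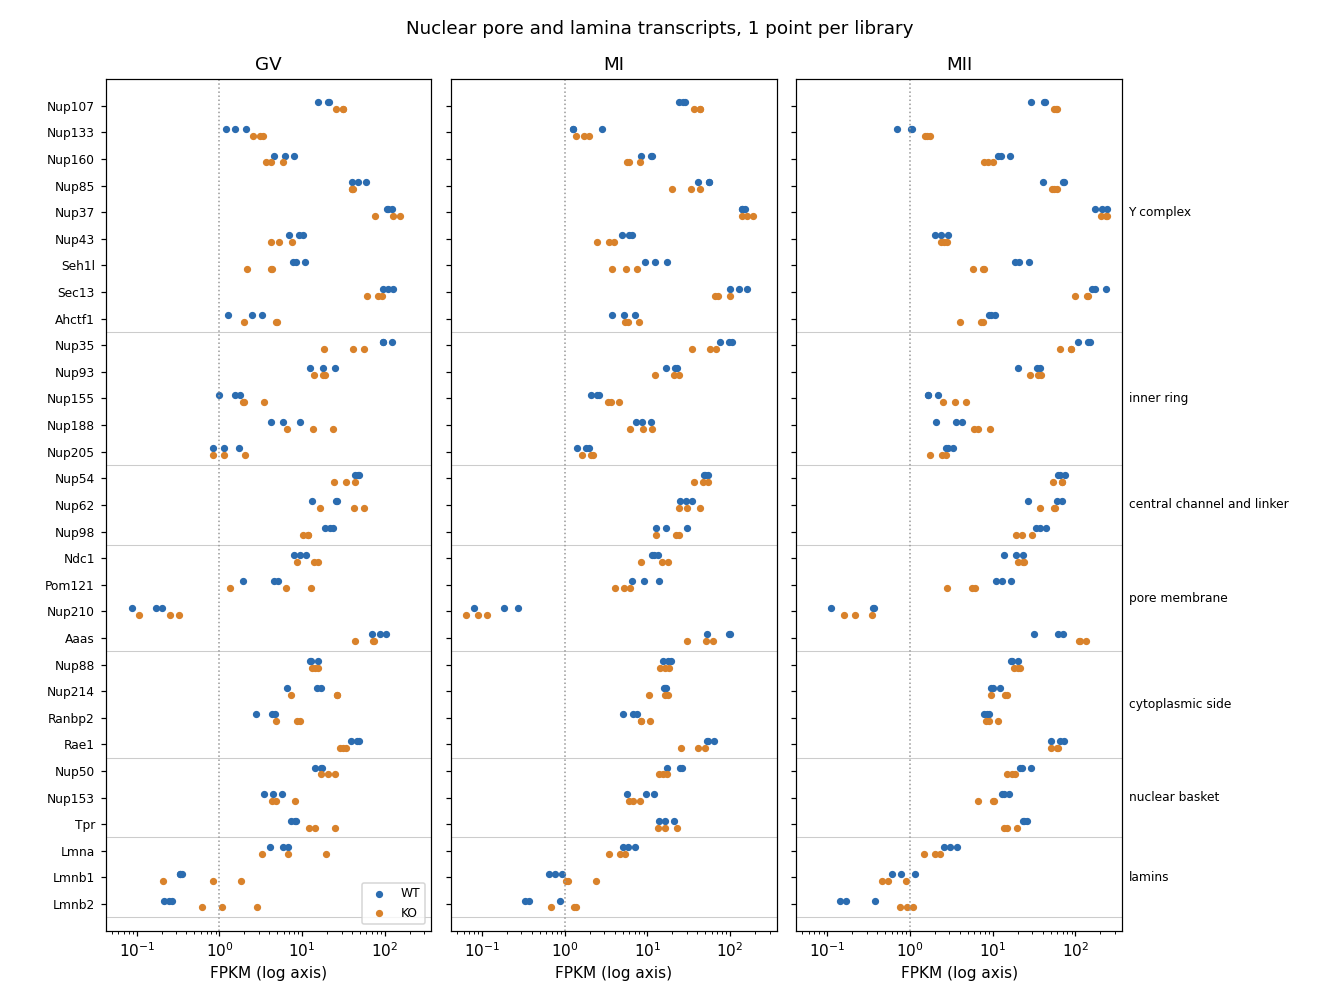
Level of each of the 31 genes at GV, MI and MII, on a log10 axis of FPKM. Points are single libraries (WT and KO in 2 colours, 3 libraries each), genes are grouped by their place in the pore or lamina, and the dotted line marks 1 FPKM. Nup37 and Sec13 lie at the top of the range, and Nup210, Lmnb1 and Lmnb2 at or below the line in most libraries.

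Between GV and MII in WT oocytes, 15 of the 30 genes rose and 1 fell at an adjusted p under 0.05 (limma, Benjamini-Hochberg over all genes tested). All 16 were pore genes, and none of the 3 lamin genes passed. Across all genes tested 57.7% were called in this comparison, 28.9% upward and 28.8% downward. The median log2 change was 0.62 for the 30 genes and 0.09 for all genes. All changes given are in log2(FPKM + 1), so changes of genes near or under 1 FPKM come out too small. In pooled oocytes, fewer contributing cells and less RNA per cell cannot be told apart. Because reverse transcription started from oligo(dT), a longer poly(A) tail and more transcript cannot be told apart either. FPKM are scaled to library size, so more of a transcript and less of the others cannot be told apart.

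The rises with the smallest p were in nuclear basket and Y complex genes. Tpr, the filament-forming protein of the basket (chr1:150392838-150449935 in mm10, plus strand), was at 8.11, 7.33 and 8.37 FPKM in the 3 WT GV libraries and at 26.3, 23.9 and 23.1 FPKM at MII. Every MII library lay above every GV library, and the log2 change was 1.51 (SE 0.26, adjusted p = 0.000104). Nup153, which anchors the basket to the pore, went from 5.72, 4.50 and 3.43 FPKM to 15.8, 13.8 and 13.01 FPKM. This change of 1.47 on the log2 scale also left no overlap between the groups (adjusted p = 0.000219). Ahctf1, which encodes ELYS, the chromatin-binding protein that starts pore assembly, went from 3.28, 2.47 and 1.27 FPKM to 10.6, 9.12 and 9.60 FPKM. Its groups did not overlap either, and the log2 change was 1.73 (adjusted p = 0.00014). The only gene that fell was Nup43, a peripheral Y complex subunit, from 9.05, 6.91 and 10.1 FPKM to 2.34, 2.87 and 2.02 FPKM. All 3 MII libraries were below the GV libraries (log2 change -1.50, adjusted p = 2.58e-05). The calls of Tpr, Nup153, Ahctf1 and Nup43 held in all 12 alternatives.

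By place in the pore, 6 of 9 Y complex genes rose (Nup107, Nup160, Nup37, Seh1l, Sec13 and Ahctf1), as did all 3 basket genes (Nup50, Nup153 and Tpr). Of the 5 inner ring genes Nup205 rose, and Nup93, a scaffold subunit, had a log2 change of 0.69 that did not pass (adjusted p = 0.0518). Among the channel genes, Nup62 and Nup98, both with FG repeats, rose by 1.17 and 0.80 on the log2 scale, whereas Nup54 at 0.51 did not pass (adjusted p = 0.0594). Of the 3 pore membrane genes tested, Ndc1 and Pom121, which code for transmembrane nucleoporins, rose by 0.87 and 1.63. On the cytoplasmic side Ranbp2, the SUMO ligase that forms the filaments, rose by 0.96, and Nup88, Nup214 and Rae1 did not pass. Leaving out WT GV replicate 1, 2 or 3 or WT MII replicate 1 or 3 removed the call of at least 1 of Nup98, Nup62, Ndc1, Sec13 and Nup50, with adjusted p up to 0.159 (Nup50 without WT MII replicate 1). With median-of-ratios scaling 13 rose and 4 fell, and with each library scaled to a constant FPKM sum 20 rose and 1 fell. In the latter the all-gene median was 0.33. The share of all genes called was not computed under any alternative, here or below, so such counts cannot be set against it.

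**Figure D2:**
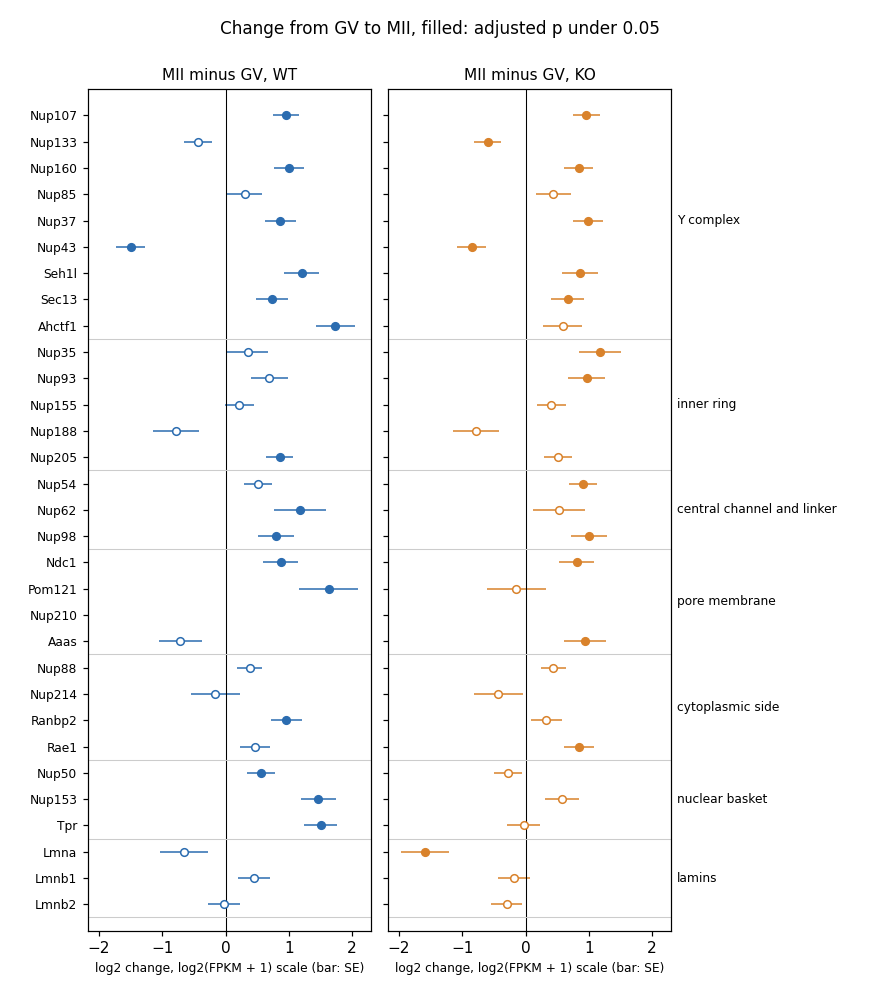
Change from GV to MII in WT and in KO, in log2 of FPKM + 1, for the 30 genes tested. Points are fitted log2 changes from 3 libraries per group, bars are standard errors, and filled points have an adjusted p under 0.05. In WT most pore genes lie to the right of 0 at MII, with Tpr at 1.51 and Nup43 at -1.50, whereas Tpr lies at -0.03 in KO.

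The step from GV to MI accounted for few calls. In WT only Tpr was called, upward (4.82% of all genes tested, 2.75% upward and 2.06% downward), at 20.8, 16.3 and 13.7 FPKM in the MI libraries. They lay above the GV libraries, with a log2 change of 0.99 (adjusted p = 0.0379). This call was lost under median-of-ratios scaling (0.61, adjusted p = 0.124), with no filter on low values (adjusted p = 0.0833) and without WT GV replicate 1, 2 or 3 or WT MI replicate 1 or 2 (adjusted p 0.0732 to 0.222). In KO limma called none of the 30 genes between GV and MI (13% of all genes tested, 2.53% upward and 10.4% downward), and 6 had an unadjusted p under 0.05. Without KO GV replicate 2 Nup43 was called (downward), without KO MI replicate 3 Nup98 (upward), and without KO GV replicate 3 there were 3 calls. In WT, 3 genes were called without WT MI replicate 3.

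From GV to MII in KO 12 of the 30 genes rose and 3 fell, where 37.2% of all genes tested were called, 11.9% upward and 25.4% downward. The median log2 change was 0.52 for the 30 genes and -0.07 for all genes. The risers were Nup107, Nup160, Nup37, Seh1l and Sec13 of the Y complex, Nup35 and Nup93 of the inner ring, the channel genes Nup54 and Nup98, the membrane genes Ndc1 and Aaas, and Rae1, an mRNA export factor of the cytoplasmic side. Nup43, Nup133 and Lmna fell, and none of the 3 basket genes was called. Nup107 rose by 0.96 and Rae1 by 0.85 on the log2 scale, and these 2 calls held in all 12 alternatives. Without KO GV replicate 2, 7 rose and 3 fell, without KO MII replicate 2, 7 rose and 2 fell, and with median-of-ratios scaling 18 rose and 2 fell. Nup35 (0.73, adjusted p = 0.0533), Nup93 (0.84, adjusted p = 0.0506), Seh1l (0.62, adjusted p = 0.102), Sec13 (0.49, adjusted p = 0.162) and Aaas (0.69, adjusted p = 0.133) were among the calls lost without KO GV replicate 2.

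Whether the change from GV to MII differed between genotypes was tested as an interaction, which called 5.61% of all genes tested (3.88% above 0 and 1.73% below) and 2 of the 30, 1 in each direction. Tpr differed by -1.54 on the log2 scale (SE 0.37, adjusted p = 0.0229), having risen in WT and stayed at 13.8, 14.96 and 19.6 FPKM in the KO MII libraries. Its KO GV libraries were at 14.2, 25.1 and 12.1 FPKM, so that in KO the GV and MII libraries overlapped. The KO change was -0.03 (adjusted p = 0.948), and 0.27 without KO GV replicate 2 (adjusted p = 0.411), where the difference was -1.24 (adjusted p = 0.0367). The adjusted p of this difference ran from 0.00437 to 0.0708 over 18 alternatives. It was above 0.05 with no filter on low values. The call was also lost without WT GV replicate 1 or 2, WT MII replicate 1 or 3, or KO MII replicate 1. The last of these gave -1.44 (adjusted p = 0.0708). Aaas (chr15:102338252-102350771, minus strand) differed by 1.65 (SE 0.48, adjusted p = 0.0481), and this call was lost in 14 of 18 alternatives (adjusted p 0.0152 to 0.138). The 14 include the omission of any single library other than KO GV replicate 3 and WT MII replicate 1. Without KO GV replicate 3, 9 of the 30 genes were called, 2 above 0 and 7 below. The share of all genes called in that fit was not computed. Ahctf1, Nup153 and Pom121 rose in WT and did not pass in KO, but for these genes the difference itself did not pass. For the change from GV to MI limma called none of the 30 genes as different between genotypes (0.0775% of all genes tested, 0.00969% above 0 and 0.0678% below), with 3 at an unadjusted p under 0.05 and 1 called without KO GV replicate 3.

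Cytoplasmic polyadenylation elements are U-rich letters near the 3′ end of a transcript through which CPEB proteins lengthen the poly(A) tail of stored mRNAs as meiosis resumes. The letters TTTTAT or TTTTAAT were looked for on the transcript strand in the last 100 bases of the annotated GENCODE vM21 transcripts. They were found in 20.9% of all tested protein-coding genes, in 29.7% of the genes that rose from GV to MII in WT and in 10.1% of those that fell. Among the pore and lamina genes, 7 of 28 with such a window held them, 4 of 14 that rose and 3 of 13 that were not called. Tpr, Nup43 and Aaas had no such window and were not searched. The 4 are shown because they are the risers with the letters, each as a stretch of 30 bases of the 3′ UTR with the letters in capitals.
Nup37, chr10:88178300-88178329, plus strand: aaaaatccttatTTTTATatcaaacatact
Nup62, chr7:44830713-44830742, plus strand: tcatgtctaTTTTATttctctgcactctat
Nup98, chr7:102119468-102119497, minus strand: tTTTTATtaaaaaatatatatatatatata
Ranbp2, chr10:58494282-58494311, plus strand: atatgcaacttaTTTTAATtcctgttaaga
For comparison, the stretch of Nup35, which did not pass between GV and MII in WT, is given in the same way.
Nup35, chr2:80658873-80658902, plus strand: tccaaataaactttgtcaatTTTTATgtgc
A match describes these letters only, and 3′ ends used in the oocyte may differ from the annotated ones.

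At GV, the KO libraries were higher in 5 of the 30 genes and lower in 3 at an adjusted p under 0.05 (20.8% of all genes tested, 13.3% higher and 7.49% lower). The higher genes were Ranbp2, Tpr, Nup107, Nup133 and Lmnb2, and the lower ones Nup35, Seh1l and Nup98. Lmnb2 reached 1 FPKM in KO libraries only and was tested only through them. All 8 calls were lost in a fit to the GV libraries alone. The median log2 difference was 0.31 for the 30 genes against 0.17 for all genes. Of the 14 granulosa markers, 5 were tested. Fshr (0.260 FPKM in WT, 1.48 in KO, adjusted p = 0.000256) and Nr5a2 (1.20 and 3.19 FPKM, adjusted p = 0.0193) were also higher in KO at GV. Only the KO GV libraries of Fshr reached 1 FPKM, so it was tested only through that group. Its p-value is therefore no independent support. Inha and Kitl were higher and Cyp19a1 (3.00 FPKM in WT, 2.22 in KO) lower, none of them called (adjusted p = 0.43, 0.213 and 0.244). The part of these markers in the GV differences was not tested. With median-of-ratios scaling the all-gene median was -0.04, and 2 were higher and 5 lower. Without KO GV replicate 2 none was higher and 2, Nup35 and Seh1l, were lower, whereas without KO GV replicate 3, 11 were higher and 5 lower. The share of all genes called without either library was not computed, so these counts cannot be set against it. Leaving out KO GV replicate 1 gave 4 calls, and leaving out WT GV replicate 1, 2 or 3 gave 5, 5 and 3, all among the 8 except Nup188 (without WT GV replicate 2).

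Nup35 (chr2:80617236-80658906, plus strand) had the smallest p at GV. It was at 96.3, 94.6 and 122 FPKM in WT, against 40.7, 18.4 and 56.6 FPKM in KO, all below the WT libraries. The log2 difference was -1.54 (SE 0.33, adjusted p = 0.00419), and -1.09 without KO GV replicate 2 (adjusted p = 0.0179). At MI the libraries were at 75.0, 105 and 96.5 FPKM in WT, against 57.3, 67.1 and 34.6 FPKM in KO (-0.83, adjusted p = 0.0924). At MII they were at 152, 107 and 142 FPKM in WT, against 89.3, 88.7 and 65.3 FPKM in KO (-0.71, adjusted p = 0.115). The KO libraries were thus below the WT libraries at each stage, and only the GV difference passed. A fit to the GV libraries alone gave an adjusted p of 0.0769.

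Seh1l, a Y complex subunit that also takes part in nutrient signalling, was lower in KO at all 3 stages. At GV it was at 8.53, 7.74 and 10.8 FPKM in WT, against 4.29, 2.14 and 4.22 FPKM in KO, a log2 difference of -1.17 (adjusted p = 0.00861). At MI it was at 12.3, 17.1 and 9.31 FPKM in WT, against 5.56, 7.55 and 3.69 FPKM in KO (-1.08, adjusted p = 0.0123). At MII it was at 27.4, 18.4 and 20.8 FPKM in WT, against 7.84, 7.60 and 5.84 FPKM in KO (-1.51, adjusted p = 0.00053). No KO library reached a WT library of its stage. The MII call held in all 12 alternatives, with adjusted p of at most 0.00465. The GV call was lost in a fit to the GV libraries alone (adjusted p = 0.0767), and the MI call without WT MI replicate 2 (-0.87, adjusted p = 0.0757) or KO MI replicate 3 (-0.85, adjusted p = 0.0727).

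Nup107, the subunit after which the Y complex is also named, was higher in KO at all 3 stages. It was at 20.5, 20.9 and 15.4 FPKM in WT, against 31.4, 30.8 and 25.6 FPKM in KO at GV. At MI it was at 28.7, 26.9 and 24.1 FPKM in WT, against 43.5, 43.8 and 36.5 FPKM in KO. At MII it was at 42.6, 29.0 and 42.1 FPKM in WT, against 55.4, 60.4 and 57.7 FPKM in KO. The groups were apart at every stage, by 0.61, 0.61 and 0.62 on the log2 scale. The adjusted p-values were close to the threshold (0.0455, 0.0495 and 0.0326), and the calls were lost in 9, 10 and 5 of 12 alternatives. Leaving out any library other than KO GV replicate 3 ended the call at GV (adjusted p up to 0.179), and any of the 6 ended it at MI (up to 0.137). At MII it was lost without WT MII replicate 2 (0.44, adjusted p = 0.167) or any KO MII replicate. At GV the difference was 0.32 under median-of-ratios scaling (adjusted p = 0.271). Within 1 subcomplex, Nup107 and Seh1l therefore lay on opposite sides of WT at each stage.

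**Figure D3:**
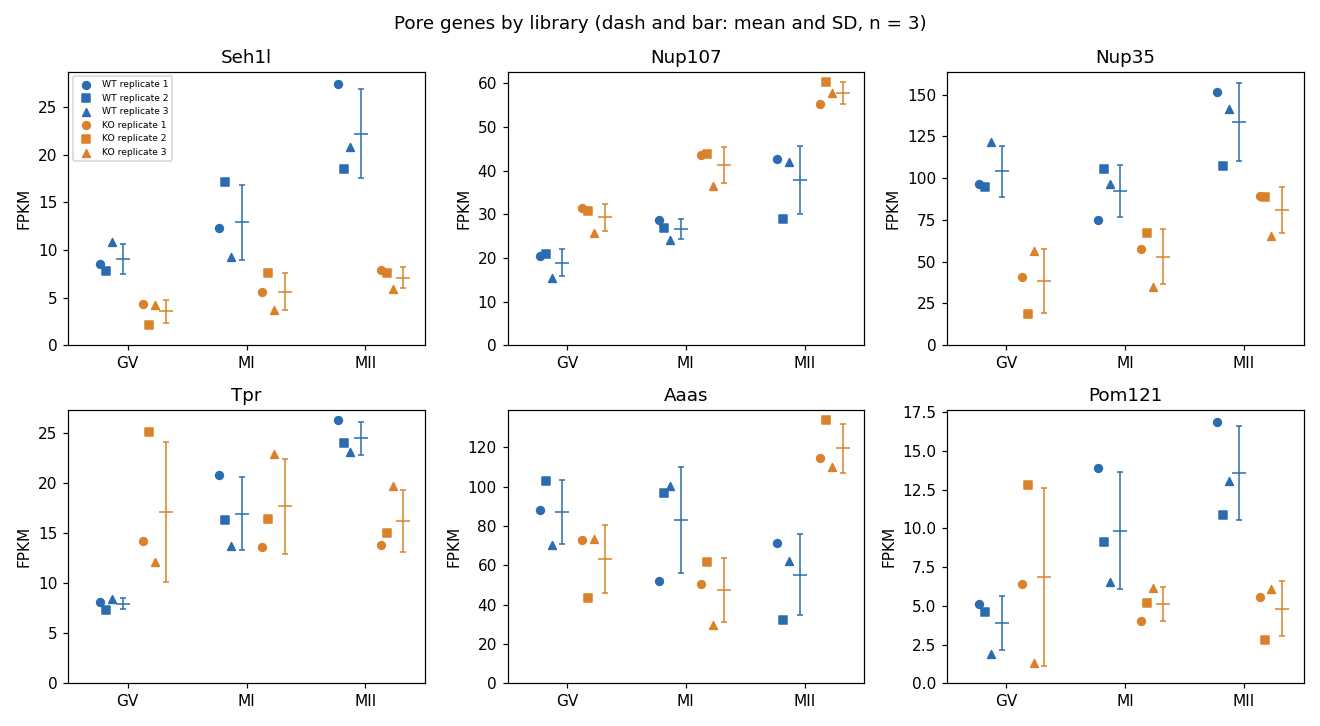
FPKM per library of Seh1l, Nup107, Nup35, Tpr, Aaas and Pom121. Each point is 1 library, with 3 replicates per genotype and stage, dashes and bars are the mean and SD, and each panel has its own FPKM axis. Seh1l is lower and Nup107 higher in KO at GV, MI and MII without overlap, and Tpr climbs from a mean of 7.94 to 24.4 FPKM in WT, against 17.1 and 16.1 FPKM in KO.

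Of the other GV differences, Tpr was at 0.95 on the log2 scale (adjusted p = 0.0178), its 3 KO libraries lying above the WT libraries. Without KO GV replicate 2 it was at 0.66 (adjusted p = 0.0973), and the call was also lost without WT GV replicate 2 (adjusted p = 0.0575). Ranbp2 was at 4.69, 4.27 and 2.79 FPKM in WT, against 9.50, 8.58 and 4.84 FPKM in KO (0.79, adjusted p = 0.0312). The groups did not overlap, but the call was lost without WT GV replicate 2 or 3 or KO GV replicate 1 or 2 (adjusted p up to 0.142). Nup98, an FG nucleoporin that binds Rae1, was at 21.7, 23.5 and 19.1 FPKM in WT, against 11.7, 10.2 and 11.9 FPKM in KO (-0.86, adjusted p = 0.0392). Its KO libraries were all lower, and only the omission of KO GV replicate 3 kept the call (adjusted p up to 0.112 for the others). Nup133, at 1.61 FPKM on average in WT and 3.01 in KO, was called with a log2 difference of 0.63 (adjusted p = 0.0483), lost in 9 of 12 alternatives. Other annotated genes cover 10.4% of its exon bases, and the strand of counting is not given in the sources used here.

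In total, all 3 KO libraries lay above all 3 WT libraries at GV in 6 of the 30 genes (17.8% of all genes tested) and below them in 5 (13.3%). At MI these counts were 4 (11.2%) and 6 (24.5%), and at MII 6 (25.8%) and 12 (24.8%). The 12 at MII were 11 pore genes, from every place in the pore except the cytoplasmic side, and 1 lamin gene, namely Nup160, Seh1l, Sec13, Ahctf1, Nup35, Nup205, Nup98, Pom121, Nup50, Nup153, Tpr and Lmna.

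At MI the KO libraries differed in 3 of the 30 genes (17.3% of all genes tested, 3.63% higher and 13.7% lower), with Nup107 higher and Nup43 and Seh1l lower. The median log2 difference of the 30 genes was -0.11 and that of all genes -0.13. Under median-of-ratios scaling the latter was 0.02, and 3 of the 30 genes were higher and 1 lower. Nup43 was at 4.91, 6.02 and 6.51 FPKM in WT, against 3.89, 3.46 and 2.46 FPKM in KO. The libraries did not overlap, but the difference of -0.68 (adjusted p = 0.0452) was lost in 11 of 12 alternatives, including the omission of any of the 6 libraries (adjusted p up to 0.179). Without WT MI replicate 2 or KO MI replicate 3 none of the 30 genes was called, and without KO MI replicate 1 only 1 was.

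At MII the KO libraries were higher in Nup107, Nup155 and Aaas and lower in Seh1l and Pom121, 5 of the 30 genes (28.6% of all genes tested, 14.9% higher and 13.8% lower). Aaas was at 71.3, 32.0 and 62.1 FPKM in WT, against 115, 134 and 110 FPKM in KO. The KO libraries were all above WT (log2 difference 1.17, adjusted p = 0.0134). WT replicate 2 was the lowest, and without it the difference was 0.83 (adjusted p = 0.0941). At GV and MI Aaas was instead at -0.48 and -0.80 on the log2 scale, and neither passed (adjusted p = 0.307 and 0.111). Its KO GV libraries were at 72.8, 43.4 and 73.6 FPKM and its WT GV libraries at 87.9, 103 and 70.5 FPKM, so these groups overlapped.

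Pom121 (chr5:135376141-135394546, minus strand), which is needed for new pores in an interphase envelope, was at 16.8, 10.9 and 13.1 FPKM in WT MII and at 5.59, 2.80 and 6.11 FPKM in KO MII. The groups did not overlap (log2 difference -1.35, SE 0.47, adjusted p = 0.0361). At GV its libraries ranged from 1.33 to 12.8 FPKM in KO and from 1.91 to 5.12 FPKM in WT. The MII call ended on leaving out WT MII replicate 1, 2 or 3 or KO MII replicate 1 or 2 (adjusted p 0.0545 to 0.149), and 11.9% of the exon bases overlap Nsun5. Nup155, an inner ring scaffold subunit, was at 1.63, 2.19 and 1.63 FPKM in WT, against 4.78, 2.48 and 3.49 FPKM in KO. Its KO libraries were above WT (0.68, adjusted p = 0.0348), a call that ended on leaving out WT MII replicate 1 or 3 or KO MII replicate 1 or 3 (adjusted p up to 0.178). With median-of-ratios scaling 5 of the 30 genes were higher and 4 lower, and with any 1 of the 6 libraries left out 2 or 3 were called.

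**Figure D4:**
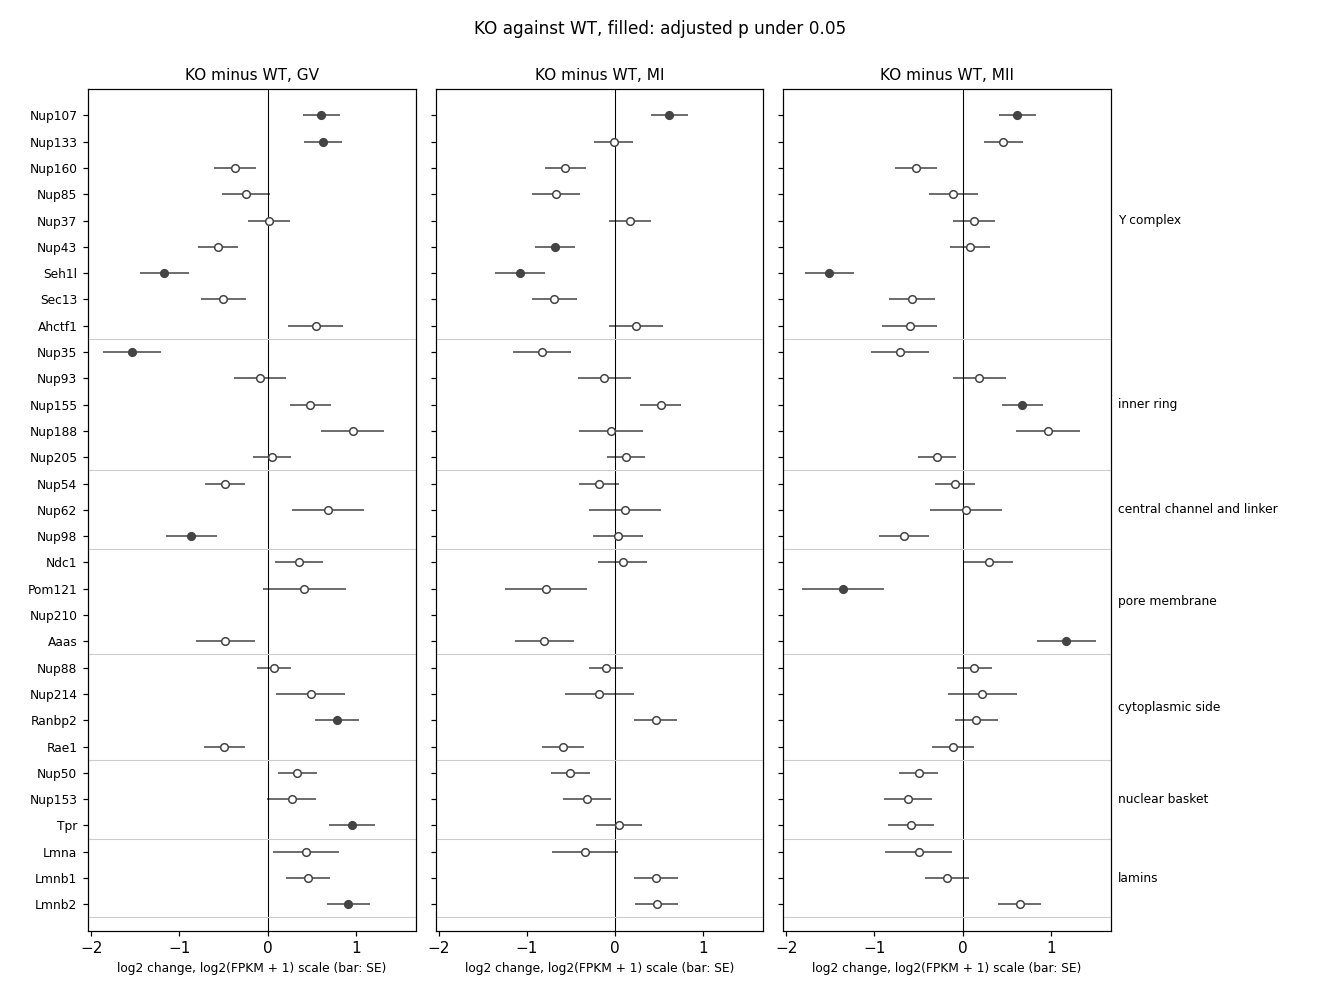
Difference between KO and WT at GV, MI and MII, in log2 of FPKM + 1, for each gene by its place in the pore or lamina. Points are fitted differences from 3 libraries per group, bars are standard errors, and filled points have an adjusted p under 0.05. Seh1l lies at -1.17, -1.08 and -1.51, Nup107 at 0.61, 0.61 and 0.62, and most other genes are open points on either side of 0.

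The B-type lamin genes were low throughout, whereas Lmna averaged 5.15 FPKM over the 18 libraries. Lmna, which encodes lamins A and C (chr3:88480147-88509956, minus strand), was at 6.81, 5.85 and 4.08 FPKM in WT GV and at 3.74, 2.60 and 3.07 FPKM in WT MII. These groups did not overlap, but the log2 change of -0.66 did not pass (adjusted p = 0.142). In KO it was at 6.70, 19.5 and 3.26 FPKM at GV and at 1.98, 1.47 and 2.33 FPKM at MII. All 3 KO MII libraries were lower than at GV (-1.59, adjusted p = 0.00266), and KO GV replicate 2 was far above the other libraries. Without it the change was -0.98 (adjusted p = 0.0108), and a fit to the compared groups alone lost the call (adjusted p = 0.0569). KO and WT differed by 0.44 at GV (adjusted p = 0.409), by -0.18 without that library, and by 0.96 without KO GV replicate 3 (adjusted p = 0.0255). At MI Lmna was at 5.80, 6.999 and 5.03 FPKM in WT, against 3.42, 5.35 and 4.72 FPKM in KO, which overlapped.

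Lmnb2, a B-type lamin gene, was at 0.246, 0.270 and 0.213 FPKM in WT GV and at 1.08, 2.84 and 0.614 FPKM in KO GV. The KO libraries were all higher (0.92, adjusted p = 0.0159), with 0.56 and an adjusted p of 0.0875 without KO GV replicate 2. Without WT GV replicate 3 the adjusted p was 0.0552, and the call was also lost with no filter on low values. No WT library reached 1 FPKM, so Lmnb2 was tested only through its KO libraries, and its p-values are no independent support. At MII it was at 0.166, 0.142 and 0.373 FPKM in WT, against 0.756, 0.909 and 1.08 FPKM in KO. These were again apart, without passing (0.64, adjusted p = 0.0567). At MI the libraries were at 0.332, 0.876 and 0.366 FPKM in WT, against 0.680, 1.36 and 1.29 FPKM in KO, and overlapped. Lmnb2 levels rested on 10 to 180 reads per library. Lmnb1, the other B-type lamin gene, was at 0.333, 0.329 and 0.356 FPKM in WT GV and at 0.826, 1.81 and 0.210 FPKM in KO GV. These groups overlapped. At MI it was at 0.940, 0.757 and 0.640 FPKM in WT, against 1.11, 1.04 and 2.39 FPKM in KO, all above the WT libraries (0.46, adjusted p = 0.227). At MII it was at 0.781, 1.15 and 0.602 FPKM in WT, against 0.454, 0.543 and 0.888 FPKM in KO, which overlapped. None of these differences between genotypes passed.

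**Figure D5:**
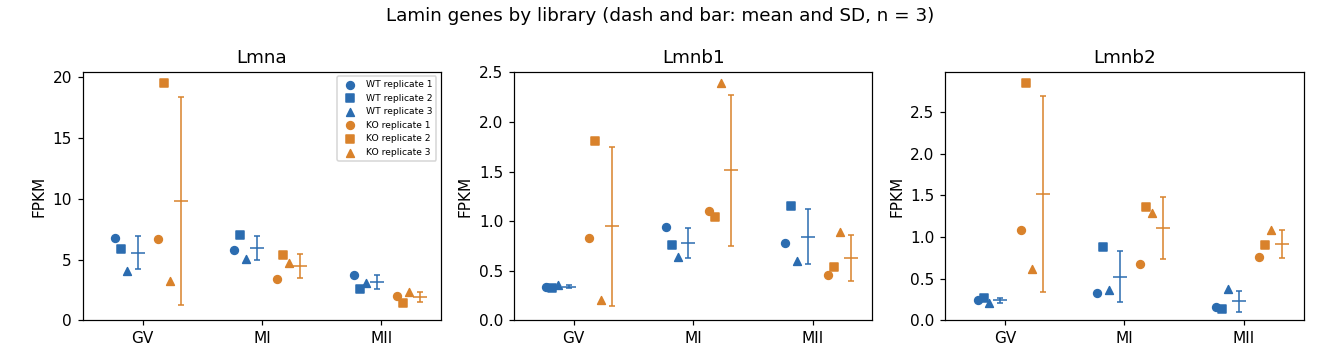
FPKM per library of Lmna, Lmnb1 and Lmnb2 by stage and genotype. Marker shapes give the replicate, dashes and bars are the mean and SD of 3 libraries, and each panel has its own linear axis. KO GV replicate 2 is the highest GV library for all 3 genes, at 19.5, 1.81 and 2.84 FPKM.

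A list of 43 other genes of the nuclear envelope was examined for context, of which 29 were tested. KO and WT differed in 3 upward and 5 downward at GV, in 2 downward at MI, and in 2 upward and 4 downward at MII. The shares of all genes tested called in these comparisons were 20.8%, 17.3% and 28.6%. Zmpste24, the protease that matures prelamin A, was lower in KO at all 3 stages. It was at 4.77, 4.22 and 3.10 FPKM in WT GV and at 1.36, 1.72 and 0.863 FPKM in KO GV (-1.12, adjusted p = 0.00377). At MI it was at 6.10, 5.42 and 3.34 FPKM in WT, against 2.35, 2.13 and 1.91 FPKM in KO (-0.90, adjusted p = 0.013). At MII it was at 5.48, 5.998 and 5.56 FPKM in WT, against 2.67, 1.36 and 2.22 FPKM in KO (-1.14, adjusted p = 0.0013). No KO library reached a WT library of its stage, and the MII call held in all 12 alternatives. The MI call was lost without WT MI replicate 1 (-0.76, adjusted p = 0.0609) or 2 (-0.83, adjusted p = 0.0532), and the GV call in a fit to the GV libraries alone (adjusted p = 0.0638). Rce1, which clips the CAAX end of prenylated lamins, was lower in KO at MI (-1.20, adjusted p = 0.00183), and this call held in all 12.

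Among genes of the inner nuclear membrane, Tor1a, which encodes the luminal ATPase torsin A, was at 272, 257 and 267 FPKM in WT GV and at 82.9, 79.1 and 57.5 FPKM in KO GV. The groups were far apart (-1.86, adjusted p = 0.000784, called in all 12 alternatives). In WT it fell to 49.6, 118 and 53.2 FPKM by MI, and its change from GV to MII differed between genotypes by 1.97 (adjusted p = 0.0165). That difference lost its call without WT MII replicate 2 (1.79, adjusted p = 0.0508) or KO MII replicate 1 (1.85, adjusted p = 0.0553). With no filter on low values its adjusted p was 0.0579. Lbr, the lamin B receptor, was at 51.8, 59.8 and 46.2 FPKM in WT GV and at 27.4, 16.1 and 33.3 FPKM in KO GV. The KO libraries were all lower (-1.06, adjusted p = 0.00636), and a fit to the GV libraries alone lost the call (adjusted p = 0.103). Sun1, which links the envelope to the cytoskeleton, was at 18.9, 13.5 and 16.0 FPKM in WT MII and at 6.58, 6.09 and 8.77 FPKM in KO MII. This difference (-1.08, adjusted p = 0.0101) held in all 12 alternatives. Between GV and MII in WT 11 of the 29 rose and 5 fell, where 57.7% of all genes tested were called, and in KO 2 rose and 4 fell, where 37.2% were.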

How the data were processed

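The 18 libraries were made with the Smart-seq2 protocol from an oligo(dT) primer, per the labels' protocols. The authors deposited FPKM per gene for all 18. Genome build mm10 and DESeq2 1.38.3 are named in the submitters' processing notes; the aligner, the annotation and strand handling were not given in the sources used here. Of 27874 gene IDs, 27774 matched GENCODE vM21 (mm10) and 100 did not. Coordinates and transcript ends come from that annotation, counted from 1.

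From these values, limma 3.58.1 (R 4.3.3) was run on log2(FPKM + 1), with 6 group means, a mean-variance trend and 12 residual degrees of freedom, for genes at 1 FPKM or more in at least 3 of 18 libraries (10320). P-values were adjusted by Benjamini-Hochberg over all tested genes within each comparison. The fit was tested on simulated data in which each gene had the same spread in every group. The greater spread of the KO GV libraries was therefore not part of that test. Reads were recovered from the steps of low FPKM values: 92.8% to 93.3% of values above 0 were within 0.05 of a whole read. No 2 libraries held identical values.

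The genes, lists and tests were chosen with earlier results of these data known. Values in each library are given for the lamins, for up to 6 called genes with the smallest p per comparison of KO with WT, and for up to 3 per direction in the WT stage changes; of other envelope genes, for up to 4. The 12 alternatives were a pseudocount of 0.1, no filter, median-of-ratios scaling, scaling to a constant FPKM sum (TPM), a fit to the compared groups alone, a replicate block, and leaving out each library compared (18 in all where 4 groups were compared).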

Additional observations from a re-analysis of the deposited data

Results flagged for a closer look

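Tpr and Aaas are listed here because their change from GV to MII differed between WT and KO by a test of the difference itself. For Tpr the difference was -1.54 on the log2 scale, WT having changed by 1.51 and KO by -0.03. Without KO GV replicate 2 the KO change was 0.27 and the difference -1.24. For Aaas it was 1.65, WT having changed by -0.71 (not called, adjusted p = 0.0778) and KO by 0.94 (adjusted p = 0.0348). All 3 KO GV libraries of Tpr were already above the WT GV libraries. The KO GV libraries were the most variable group, and without KO GV replicate 2 the Tpr difference was the only 1 of the 30 still called. The part of that variability in the difference was not tested.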

How the results depend on the processing

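Of the calls, 10 of 16 held in all alternatives from GV to MII in WT, 2 of 15 in KO, and 0 of 8, 0 of 3 and 1 of 5 between KO and WT at GV, MI and MII. Without the filter on low values 3 genes were called between KO and WT at GV and 3 at MII, 0 from GV to MI in WT and 0 as a difference between genotypes to MII. Median-of-ratios scaling gave 9 at MII and 0 from GV to MI in WT. Scaling to a constant sum gave 1 at MI and 1 as a difference to MII. Fits to the compared groups alone gave 0 at GV, 1 at MI, 11 at MII, 4 from GV to MII in KO and 1 as a difference to MII. The replicate numbers did not pair the libraries: correlations of same-numbered deviations ran from -0.52 to 0.36, and in no comparison were all over 0.1. With a replicate block 1 gene was called at MI, 8 at MII, 13 from GV to MII in KO and 1 as a difference to MII. From GV to MI in WT, Tpr fell just short of a call (adjusted p = 0.05 after rounding) and Nup153 was called. The counts at GV (8) and from GV to MII in WT (16) were as without it.

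Leaving out 1 library gave 2 to 16 calls between KO and WT at GV (2 without KO GV replicate 2, 16 without KO GV replicate 3), 0 to 4 at MI and 2 to 3 at MII. It gave 0 to 3 from GV to MI in WT, 0 to 3 in KO, 9 to 15 from GV to MII in KO, 0 to 1 as a difference to MI and 0 to 9 as a difference to MII (9 without KO GV replicate 3). Among the called changes and the differences of the lamin genes between KO and WT, the only sign change was Lmna at GV, at -0.18 without KO GV replicate 2, against 0.96 and a call without KO GV replicate 3. The shares of all genes called in these fits were not computed, and the causes were not tested. Genes under 1 FPKM rest on few reads, and differences in them were hard to detect at this depth.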
